A study of Rattus norvegicus with 11 samples.

Results

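The Schwann cell repair genes described here are 9 genes, Shh, Sox2, Olig1, Btc, Runx2, Cdh2, Ncam1, Clcf1 and Sox10, taken by symbol from a table of 16811 gene rows; all 9 were in it. They were followed by RNA sequencing of dorsal root ganglia of Sprague-Dawley rats, the clusters of sensory nerve cell bodies beside the spinal cord, in which satellite glia and Schwann cells also lie. The 11 libraries formed 3 groups, namely left ganglia of rats with a spinal nerve ligation that then received UNC0638 (SNL plus UNC0638, n = 3), left ganglia of rats with the ligation alone (SNL, n = 4), and control ganglia of the right side of sham-operated rats (Sham, n = 4). UNC0638 inhibits the histone methyltransferases G9a and GLP. No group had UNC0638 without ligation, so an effect of the compound in uninjured ganglia cannot be told apart from its effect after ligation, and side of the body cannot be told apart from ligation. The time after surgery, the dose, the sex and age of the rats and the number of animals behind each library were not given in the sources used here. P-values measure the spread between these libraries, which may be technical.

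Schwann cells wrap the axons of peripheral nerves. After an axon is cut they leave the myelinating state, regain genes of the immature cell, and take on a repair state led by the transcription factor Jun, in which they clear myelin and give off factors that keep neurons alive and guide regrowth. Shh, Olig1, Btc, Runx2 and Clcf1 are known from injured nerves of rodents as genes that are low in uninjured Schwann cells and switched on in repair cells, Sox2, Ncam1 and Cdh2 belong to immature or non-myelinating Schwann cells, and Sox10 is needed in the lineage at all stages. A spinal nerve ligation ties the nerve beyond the ganglion, so that the ganglion holds the injured neurons and only the nearest stretch of their sheaths.

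The values are gene counts that the authors brought to a like total in every library, called scaled counts here. The libraries held an estimated 6127881 to 24367805 reads. The neuronal marker sum was 123372 to 325738 scaled counts per library and the peripheral myelin sum 68285 to 116087, so the labelled tissue showed its main cells in all 11 libraries. SNL plus UNC0638 replicate 1 stood apart: its 9 skeletal muscle markers summed to 79818, against 173 to 239.8 in replicates 2 and 3 of that group, 149 to 553 in SNL and 179 to 206 in Sham. Sham replicate 3 had a macrophage marker sum of 4202, against 1934 to 2318 in the other Sham libraries. In bulk tissue fewer cells of a type and less RNA per cell cannot be told apart.

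Among the members, the factor Runx2 and the secreted ligands Btc and Clcf1 were the ones that rose most after ligation, between 4.44-fold and 6.13-fold by group means, and Sox10 rose 1.84-fold. Shh, Sox2, Cdh2 and Ncam1 were readily detected in Sham and did not pass the test. Olig1 was at or below 2 reads in every library. Of the 8 members tested, 4 were higher and 0 lower in SNL than in Sham (limma, adjusted p under 0.05 over 12085 genes), where 24.8% of all tested genes were higher and 48.2% were called in either direction. The groups did not overlap for 3 of the 8, all higher, where 22.1% of tested genes were higher without overlap, 21.2% lower and 43.3% either. The median log2 fold change of the 8 was 0.68, against -0.0033 over all tested genes. Btc and Clcf1 were near the filter in Sham and entered the test through the ligated groups, so the count over the 8 is a description. The plot of the members by library shows these values.

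**Figure D1:**
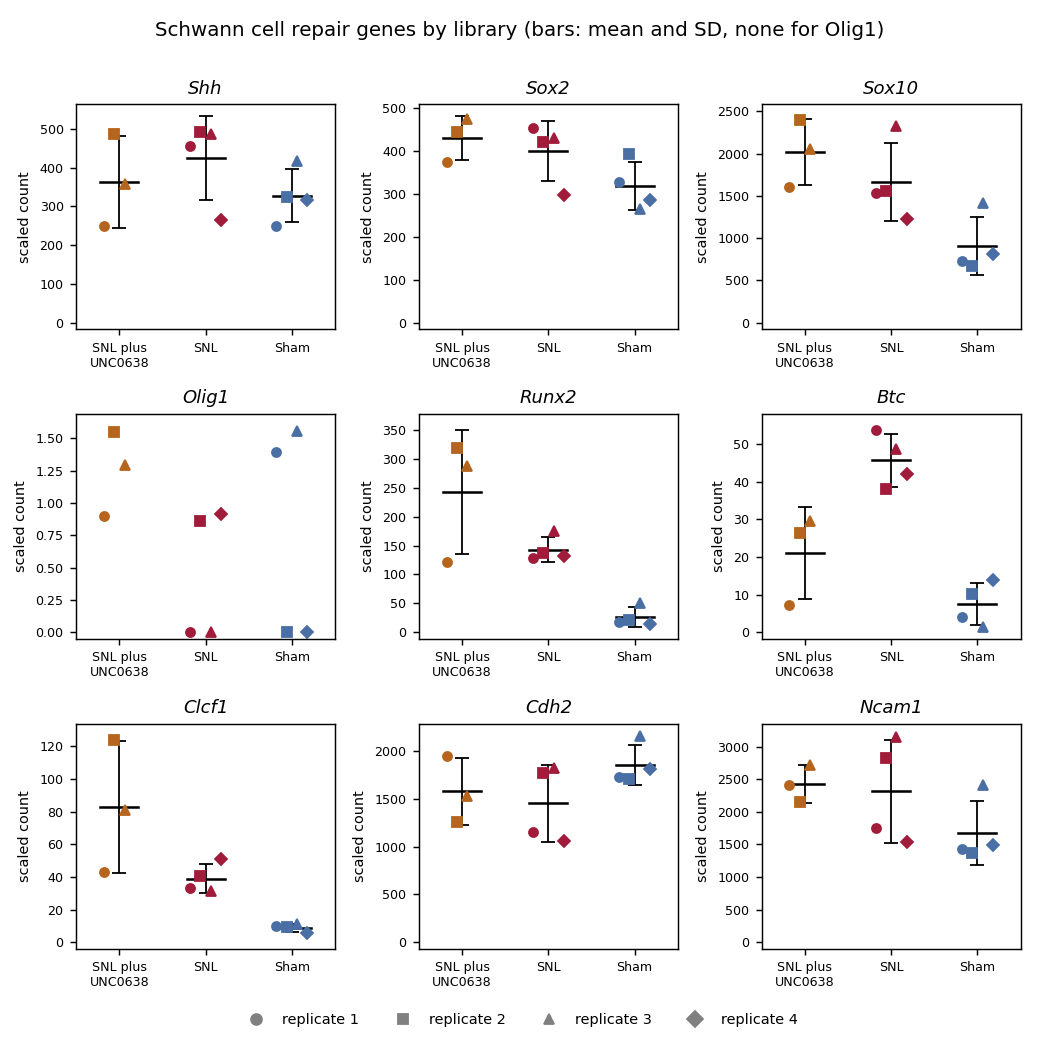
Scaled counts of the 9 members in each library, with groups on the horizontal axis, replicates as symbols, and the group mean and SD as bars (none for Olig1). Runx2, Btc and Clcf1 of all SNL libraries lie above all Sham libraries, while Shh, Sox2, Cdh2 and Ncam1 overlap between the groups.

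Runx2 is a runt-domain transcription factor best known for driving bone formation. Its scaled counts were 121, 319 and 288 in SNL plus UNC0638, 128, 136, 176 and 132 in SNL, and 18.1, 21.6, 51.4 and 14.6 in Sham. All SNL libraries lay above all Sham libraries, and Sham replicate 3 was the highest of its group. Means were 143 ± 22 in SNL and 26.4 ± 16.9 in Sham (SD, n = 4 each), a log2 fold change of 2.55 (SE 0.38, limma adjusted p = 0.000341). The level in SNL plus UNC0638 was 242 ± 106 (SD, n = 3).

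RefSeq (build GRCr8, a later build than the rn4 used for the counts) gives 2 start sites of Runx2, and their promoters, 250 bases before to 50 after the start, are shown because Runx2 rose and because RUNX factors bind TGTGGT, the reverse complement of which is ACCACA. Capitals mark that motif on either strand.
Runx2 upstream start, chr9:23664808-23665107, plus strand: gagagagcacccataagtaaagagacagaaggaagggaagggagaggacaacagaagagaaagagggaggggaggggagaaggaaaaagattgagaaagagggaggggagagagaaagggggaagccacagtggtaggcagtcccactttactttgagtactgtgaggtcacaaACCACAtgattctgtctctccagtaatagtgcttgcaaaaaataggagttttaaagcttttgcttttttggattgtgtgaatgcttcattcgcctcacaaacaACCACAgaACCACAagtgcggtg
Runx2 downstream start, chr9:23742990-23743289, plus strand: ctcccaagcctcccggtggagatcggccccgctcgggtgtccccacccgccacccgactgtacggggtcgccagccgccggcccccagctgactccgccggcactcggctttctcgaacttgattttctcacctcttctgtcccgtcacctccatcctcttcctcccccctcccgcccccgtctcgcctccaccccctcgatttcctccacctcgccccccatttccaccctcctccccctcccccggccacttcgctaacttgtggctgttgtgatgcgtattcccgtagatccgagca
The upstream promoter held 3 matches, all written ACCACA on the plus strand and none overlapping another, and the downstream one held 0. Of 33469 promoters of this length in the table, 17.3% held at least 1 match and 0.209% held 3 or more. The AP-1 motif TGACTCA, the site of Jun-containing dimers, and ACAAAG, a sequence bound by SOX factors, had no match on either strand in these windows. They occur in 4.63% and 18.8% of the promoters. The promoters of Btc, which also rose, and of Sox2 were searched as well and held 0 matches to the RUNX, AP-1 and SOX motifs. The counts are per gene and do not tell the 2 starts of Runx2 apart, and a match is a description of letters.

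Btc encodes betacellulin, a ligand of the EGF receptor family. Its scaled counts were 7.18, 26.3 and 29.7 in SNL plus UNC0638, 53.6, 38.2, 48.8 and 42.0 in SNL, and 4.17, 10.2, 1.56 and 13.8 in Sham. Every SNL library was above every Sham library. SNL plus UNC0638 replicate 1 lay within the Sham range, and replicates 2 and 3 lay between the Sham and SNL ranges. SNL averaged 45.6 ± 6.91 and Sham 7.45 ± 5.59 (SD, n = 4 each), a log2 fold change of 2.75 (SE 0.55, limma adjusted p = 0.00187). The added count of 1 shrinks such fold changes of low genes. Sham held only 1 to 18 reads of Btc a library, so whether 2.75 is too small or too large cannot be told.

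Clcf1 encodes cardiotrophin-like cytokine factor 1, a secreted cytokine that signals through the CNTF receptor. Its scaled counts were 43.1, 124 and 81.3 in SNL plus UNC0638, 32.9, 40.3, 31.5 and 51.1 in SNL, and 9.74, 9.09, 10.9 and 5.38 in Sham. Both ligated groups lay above all Sham libraries, and SNL plus UNC0638 replicate 1 fell within the SNL range while replicates 2 and 3 exceeded it. SNL averaged 38.96 ± 8.95 and Sham 8.78 ± 2.39 (SD, n = 4 each), a log2 fold change of 2.04 (SE 0.33, limma adjusted p = 0.000539).

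Sox10 encodes the SOX factor that specifies and maintains the Schwann cell and satellite glial lineage. Its scaled counts were 1608, 2395 and 2052 in SNL plus UNC0638, 1536, 1562, 2325 and 1230.3 in SNL, and 726, 666, 1410.2 and 808 in Sham. Sham replicate 3 lay above SNL replicate 4, so the groups overlapped by 1 library. SNL averaged 1663 ± 466 and Sham 902 ± 343 (SD, n = 4 each), a log2 fold change of 0.91 (SE 0.25, limma adjusted p = 0.0109). Btc, Runx2, Clcf1 and Sox10 passed the test in SNL against Sham under every alternative that tested them.

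Sox2, a SOX factor that holds Schwann cells in the immature state, had 374, 446 and 475 scaled counts in SNL plus UNC0638, 454, 421, 430.3 and 297 in SNL, and 328, 394, 265 and 287 in Sham. SNL replicate 4 lay within the Sham range, and the log2 fold change of SNL against Sham was 0.33 (95% interval -0.03 to 0.69, limma adjusted p = 0.118). Without SNL replicate 4 it was 0.46 and passed (limma adjusted p = 0.0305). That library is singled out here after its Sox2 value was seen, so the pass is a description.

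Shh encodes Sonic hedgehog, a secreted ligand. It had 248, 486 and 357 scaled counts in SNL plus UNC0638, 456, 491, 486 and 264 in SNL, and 250.4, 325, 418 and 317 in Sham. It was thus well above the floor in Sham ganglia, SNL replicate 4 stood below the other SNL libraries, and the log2 fold change of SNL against Sham was 0.35 (95% interval -0.19 to 0.89, limma adjusted p = 0.255).

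The adhesion genes did not pass the test. Ncam1, the neural cell adhesion molecule of neurons and non-myelinating Schwann cells, had 2419, 2146 and 2722 scaled counts in SNL plus UNC0638, 1756, 2823, 3151 and 1541 in SNL, and 1432, 1371, 2412 and 1489.5 in Sham. Sham replicate 3 stood within the SNL range, and the log2 fold change of SNL against Sham was 0.44 (95% interval -0.09 to 0.98, limma adjusted p = 0.153). Without Sham replicate 3 it was 0.63 and passed (limma adjusted p = 0.0347). That library is singled out here after its Ncam1 value was seen, so the pass is a description. Cdh2, which encodes N-cadherin, an adhesion molecule of neurons and immature Schwann cells, had 1944, 1255 and 1531 scaled counts in SNL plus UNC0638, 1158, 1767, 1821 and 1059 in SNL, and 1726, 1711, 2159.7 and 1809 in Sham. It was the member with a negative log2 fold change in SNL against Sham, -0.39 (95% interval -0.82 to 0.04, limma adjusted p = 0.122). Neuronal markers summed to 123372 to 185382 in SNL plus UNC0638, 157444 to 199678 in SNL and 272171 to 325738 in Sham. Within that sum the neurofilament gene Nefl was lower in SNL than in Sham (means 26691 and 121309). The tubulin gene Tubb3 was higher (78534 and 55672). The part of neuronal RNA in the Cdh2 and Ncam1 values was not tested.

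Olig1, a basic helix-loop-helix factor of central oligodendrocytes that is also switched on in repair Schwann cells, was listed at 0.897, 1.55 and 1.29 in SNL plus UNC0638, at 0, 0.857, 0 and 0.912 in SNL, and at 1.39, 0, 1.56 and 0 in Sham. These stand for 0 to 2 reads a library, under the 3 reads that a count of 0 allows (counting error only), so Olig1 was not detectable at this depth in any group and no fold is given. Olig2, its relative in central oligodendrocytes, had 1 read in Sham replicate 1 (1.39 scaled counts) and was listed at 0 in the other libraries, the central myelin gene Mobp was at most 4.48, and Mog, another gene of central myelin, was at 15.6 to 34.8 in all 11 libraries.

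**Figure D2:**
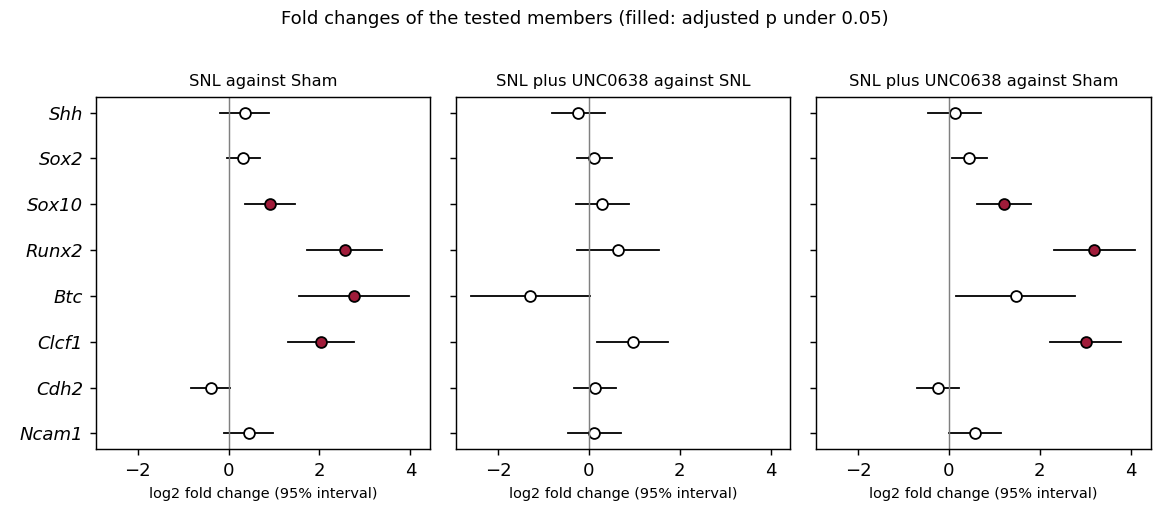
Log2 fold changes of the 8 tested members with 95% intervals in the 3 comparisons; filled points passed the adjusted p threshold of 0.05. Runx2, Clcf1 and Sox10 are filled in both comparisons with Sham, Btc only in SNL against Sham, and none in SNL plus UNC0638 against SNL.

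Between SNL plus UNC0638 and SNL the members differed in direction, with Btc lower and Clcf1 and Runx2 at higher means, but limma called 0 of 8, where 27.8% of all tested genes were called, 13.5% higher and 14.3% lower. At an unadjusted p under 0.05 there was 1, Clcf1. Limma-voom on the estimated reads called 3, Runx2, Clcf1 and Sox10, but it also moved the median of all genes. The share of all genes that limma-voom called is not given here, so its count of members is a description. Clcf1 averaged 82.7 ± 40.4 in SNL plus UNC0638 (SD, n = 3) and 38.96 ± 8.95 in SNL (SD, n = 4), a log2 fold change of 0.97 (95% interval 0.18 to 1.75, limma adjusted p = 0.0632). Without SNL plus UNC0638 replicate 1 it was 1.37 and passed (limma adjusted p = 0.0181). Runx2 averaged 242 ± 106 in SNL plus UNC0638 and 143 ± 22 in SNL, a log2 fold change of 0.65 (95% interval -0.25 to 1.55, limma adjusted p = 0.246), and 1.09 without that replicate (limma adjusted p = 0.0723). Btc averaged 21.0 ± 12.1 in SNL plus UNC0638 and 45.6 ± 6.91 in SNL, with all 3 SNL plus UNC0638 libraries below the lowest SNL library. It was the 1 member of 8 whose groups did not overlap, where 17.7% of tested genes were higher without overlap, 19.9% lower and 37.6% either. Its log2 fold change was -1.28 (95% interval -2.59 to 0.02, limma adjusted p = 0.123), and -0.68 without replicate 1 of SNL plus UNC0638 (limma adjusted p = 0.415). For Shh, Sox2, Cdh2, Ncam1 and Sox10 the log2 fold changes were -0.23 (95% interval -0.81 to 0.35), 0.12 (-0.27 to 0.51), 0.14 (-0.32 to 0.60), 0.13 (-0.45 to 0.70) and 0.30 (-0.29 to 0.89), and none passed. With a model term for a split of the libraries that was found in the values and not in the labels, Sham replicate 3, SNL replicate 3 and the SNL plus UNC0638 libraries on one side, Runx2 turned to -0.056, Sox10 to -0.32, Cdh2 to -0.16 and Ncam1 to -0.41, and none of these passed. All SNL plus UNC0638 libraries were on that side, so the split overlaps the treatment. The size of the term came from Sham replicate 3 and SNL replicate 3 alone, which were chosen from these values. Values and calls of SNL plus UNC0638 with the term, here and below, are thus a description.

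SNL plus UNC0638 against Sham shares its Sham libraries with SNL against Sham, so the values are given side by side and are not independent. Of the 8 members, 3 were higher and 0 lower (limma adjusted p under 0.05), where 25.5% of all tested genes were higher, 26% lower and 51.5% either. The groups did not overlap for Runx2, Clcf1 and Sox10, all higher, where 23.4% of tested genes were higher without overlap, 24.9% lower and 48.4% either. Runx2 had a log2 fold change of 3.20 (limma adjusted p = 0.000199) in SNL plus UNC0638 against Sham, beside 2.55 in SNL against Sham. Clcf1 had 3.01 (limma adjusted p = 0.000139) beside 2.04, and Sox10 had 1.21 (limma adjusted p = 0.00337) beside 0.91. Btc had 1.47 (limma adjusted p = 0.0572) beside 2.75. Without SNL plus UNC0638 replicate 1, Btc had 2.08 (limma adjusted p = 0.0119) and Sox2 0.55 (limma adjusted p = 0.0388), and both passed. With the same model term Sox10 passed at 0.59 (limma adjusted p = 0.0253).

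Macrophage markers, like Runx2 and Clcf1, were higher in both ligated groups than in Sham, and so were other marker sums. Fibroblast markers summed to 38017 to 93261 in SNL plus UNC0638, 85909 to 217026 in SNL and 24041 to 33735 in Sham. Endothelial markers summed to 1833 to 2308, 1810 to 2164 and 983 to 1374, and those of dividing cells to 433 to 826, 614 to 1192 and 173 to 237, in the same order. Satellite glia markers, of which Apoe was the largest, summed to 43440 to 51092, 41910 to 44715 and 50220 to 64361, again in that order. The neuronal sum was lower in both ligated groups. Its markers did not move alike in SNL against Sham. Of 9 tested, 7 were lower and 1 higher, where 23.4% and 24.8% of all tested genes were. Nefl averaged 26691 in SNL and 121309 in Sham, Tubb3 78534 and 55672, and Prph 38553 and 37120. The 9 macrophage markers summed to 8474 to 15014 scaled counts in SNL plus UNC0638, 10747 to 17822 in SNL and 1934 to 4202 in Sham, with no marker at 0 in any library. Of the 9, 8 rose in SNL against Sham, where 24.8% of all tested genes were higher. Within SNL, replicate 1 had the highest macrophage sum (17822) and the lowest Runx2 (128). Replicate 3 of SNL had the lowest sum (10747) and the highest Runx2 (176). The other groups ran the other way. In Sham, replicate 3 had both the highest sum (4202) and the highest Runx2 (51.4). In SNL plus UNC0638, replicate 1 had both the lowest sum (8474) and the lowest Runx2 (121). Over the 11 libraries the tested genes nearest to Runx2 in pattern, by the root mean square difference of centred log2 values, were the myeloid integrin gene Itgam (0.26) and the selectin ligand gene Selplg (0.29), against a median of 1.52 over all genes. Those nearest to Clcf1 were the interferon-induced GTPase gene Ifi47 (0.25) and Rbm47 (0.26), against 1.36. Btc lay nearest to Acvr1c (0.39) and Arsj (0.41), Sox10 to Rap2b (0.14) and Itpr3 (0.14), Sox2 to Dnajc3 (0.15) and Cyp2j3 (0.15), and Shh to Epha4 (0.20) and Ccsap (0.22). Cdh2 lay nearest to the calcineurin subunit gene Ppp3r1 (0.086) and the motor gene Myo5a (0.092), and Ncam1 to Cyfip2 (0.15) and Pcdhga7 (0.15). The label of the 9 genes as a Schwann cell program is that of the rule; the libraries are of whole ganglia and do not show which cells held the RNA.

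Ratios within a library do not depend on its scaling. Per 1000 scaled counts of Sox10, Runx2 had 75.3 to 140.2 in SNL plus UNC0638, 75.6 to 107 in SNL and 18.1 to 36.5 in Sham, so both ligated groups lay above Sham. Clcf1 per 1000 of Sox10 was 26.8 to 51.7 in SNL plus UNC0638, 13.6 to 41.5 in SNL and 6.66 to 13.7 in Sham, where the lowest SNL library overlapped Sham. Per 1000 scaled counts of the summed macrophage markers, Runx2 had 14.3 to 23.4 in SNL plus UNC0638, 7.18 to 16.3 in SNL and 7.55 to 12.2 in Sham, and SNL and Sham overlapped. Clcf1 per 1000 of those markers was 5.08 to 9.11 in SNL plus UNC0638, 1.85 to 4.25 in SNL and 2.60 to 4.43 in Sham, with SNL plus UNC0638 above both other groups. Cd74 was the largest of those markers in every library, so ratios to their sum lean on that gene. It had 4683 to 9018 scaled counts in SNL plus UNC0638, 7056 to 12390 in SNL and 813 to 1885 in Sham. Ratios to single markers were not taken. Btc per 1000 of Sox10 was 4.46 to 14.5 in SNL plus UNC0638, 21.0 to 34.9 in SNL and 1.10 to 17.1 in Sham, and SNL stood above both other groups. The part of RNA of macrophages, fibroblasts, endothelium, dividing cells or satellite glia in these values was not tested.

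**Figure D3:**
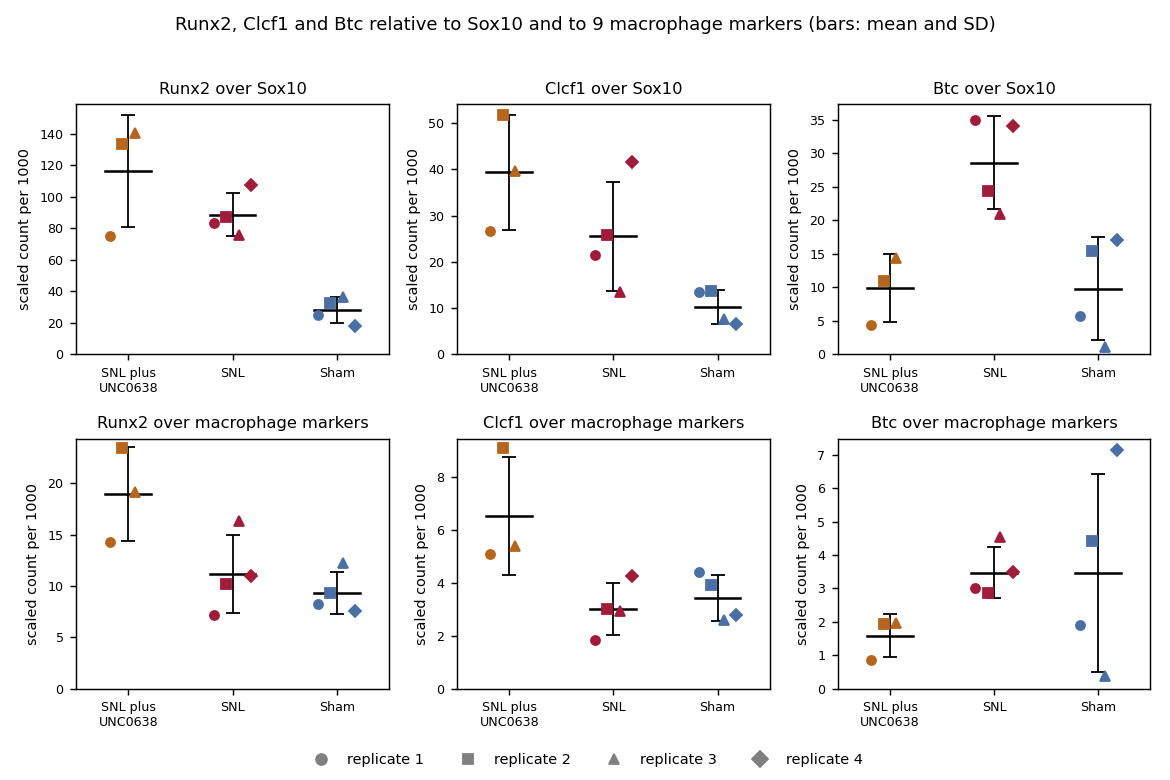
Runx2, Clcf1 and Btc per 1000 scaled counts of Sox10 (top row) and of the sum of 9 macrophage markers (bottom row) in each library, with mean and SD as bars. Relative to Sox10, Runx2 of both ligated groups lies above Sham; relative to macrophage markers, SNL and Sham overlap for all 3 genes.

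Around Shh, the other genes of the hedgehog pathway were examined. Of 12 tested genes other than Shh, chosen like all lists here with earlier results known, 8 rose and 0 fell in SNL against Sham, with a median log2 fold change of 0.99, against -0.0033 over all tested genes, of which 24.8% were higher and 48.2% called. Cdon, Sufu, Disp1 and Disp2 did not pass, with log2 fold changes of 0.43, 0.45, 0.16 and -0.14. Dhh, the hedgehog ligand made by Schwann cells, had 1956 ± 240.2 scaled counts in SNL and 1143 ± 102 in Sham (SD, n = 4 each; log2 fold change 0.77, limma adjusted p = 0.000615). Ptch1, the hedgehog receptor and also a target of the pathway, had 2093 ± 892 in SNL and 853 ± 226 in Sham (log2 fold change 1.24, limma adjusted p = 0.00361). The transcription factor genes Gli3 and Gli2, which carry the signal to the nucleus, had log2 fold changes of 1.20 and 1.71 (limma adjusted p = 0.000739 and 0.00875). Among the others that rose, named after their values were seen, were Gli1, Smo and Hhip. Gli1, a direct target, had 229.5, 124, 188 and 616.5 in SNL and 69.6, 78.4, 109 and 86.1 in Sham. SNL replicate 4 was the highest library for Gli1, Gli2, Gli3, Ptch1 and Smo and the lowest SNL library for Shh and Dhh. Its fibroblast markers summed to 217026, against 85909 to 124928 in the other SNL libraries, and their part in these values was not tested.

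**Figure D4:**
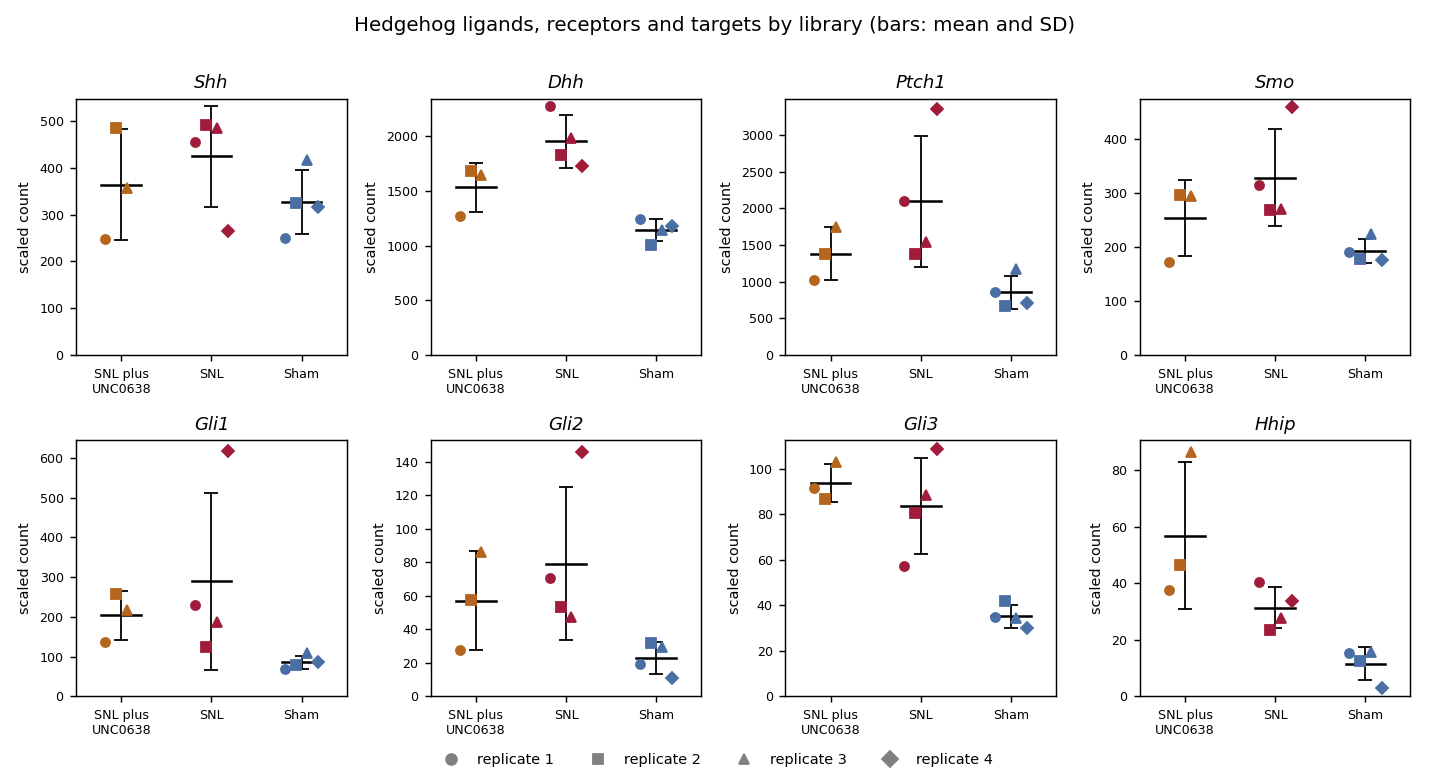
Scaled counts of Shh and 7 other hedgehog genes in each library, with replicates as symbols and the group mean and SD as bars. All SNL libraries lie above all Sham libraries for each of the 7, whereas Shh overlaps.

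Among the hedgehog genes, SNL plus UNC0638 against SNL had 2 of the 12 higher and 0 lower, where 13.5% of all tested genes were higher. Disp1, which releases hedgehog ligands from cells, averaged 519 ± 68.9 in SNL plus UNC0638 (SD, n = 3) and 331 ± 49.8 in SNL (SD, n = 4; log2 fold change 0.65, limma adjusted p = 0.0161), and the coreceptor gene Cdon averaged 137 ± 21.8 in SNL plus UNC0638 and 90.5 ± 19.1 in SNL (limma adjusted p = 0.0415). The Cdon call was lost in 13 alternatives, among them TMM scaling (limma adjusted p = 0.053), a fit of the 2 groups alone (limma adjusted p = 0.063) and the replicate block (limma adjusted p = 0.077), and the Disp1 call without SNL plus UNC0638 replicate 2 (limma adjusted p = 0.066) and with the model term (limma adjusted p = 0.191). Without SNL plus UNC0638 replicate 1, 1 of the 12 was called, and with the model term 0 were. Dhh was 1534 ± 227 in SNL plus UNC0638 (SD, n = 3) and 1956 ± 240.2 in SNL (SD, n = 4), with a limma adjusted p of 0.0757.

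Of the relatives of Sox2, Sox10 and Olig1, 9 were tested, and 6 rose and 0 fell in SNL against Sham. Of all tested genes 24.8% were higher and 48.2% called in either direction. Sox11, a neuronal regeneration factor, had 501 ± 98.6 in SNL and 54.6 ± 10.3 in Sham (SD, n = 4 each; log2 fold change 3.17, limma adjusted p = 0.000106). Sox4 had a log2 fold change of 1.15, Sox8, the close relative of Sox10, 1.56, and Sox7 2.05 (limma adjusted p = 0.000201, 0.000406 and 0.00137). Sox7 was at 4.17, 4.54, 17.1 and 6.15 in Sham and entered the test through the ligated libraries. Its call and its place in the count of 6 are a description. Of the same 9, 3 were lower and 0 higher in SNL plus UNC0638 than in SNL, where 14.3% of all tested genes were lower. Sox11 had 177 ± 92.7 in SNL plus UNC0638 (SD, n = 3) and 501 ± 98.6 in SNL (SD, n = 4; log2 fold change -1.66, limma adjusted p = 0.00734). Sox4 and Sox8 had -0.64 and -0.97 (limma adjusted p = 0.0166 and 0.0184), and under limma-voom these were -0.35 and -0.60 and neither passed (adjusted p = 0.072 and 0.065). Sox11 was at 70.9 in SNL plus UNC0638 replicate 1, against 221 and 239.9 in replicates 2 and 3, and without replicate 1 the Sox8 call was lost (limma adjusted p = 0.072).

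The EGF family of Btc went both ways after ligation. Of 9 tested genes of the EGF family, 4 rose and 2 fell in SNL against Sham, where 24.8% of all tested genes were higher and 23.4% lower. The EGF receptor gene Egfr had 953 ± 419 in SNL and 286 ± 65.7 in Sham (SD, n = 4 each; log2 fold change 1.65, limma adjusted p = 0.00104). Erbb2 and Erbb3, which pair as the neuregulin receptor of Schwann cells, had log2 fold changes of 1.47 and 0.97 (limma adjusted p = 0.000277 and 0.00154). Erbb4, the other receptor that binds betacellulin, averaged 40.2 in SNL and 63.6 in Sham and did not pass (log2 fold change -0.67, limma adjusted p = 0.067). The neuregulin gene Nrg2 fell by 1.66 on the log2 scale (limma adjusted p = 0.000293). Compared with SNL, SNL plus UNC0638 libraries differed in 3 of the 9, where 27.8% of all tested genes were called. Nrg2 and the ligand gene Egf were higher by 1.29 and 1.26 on the log2 scale (limma adjusted p = 0.00502 and 0.00569) and the ligand gene Hbegf was lower by -0.61 (limma adjusted p = 0.0335). The Hbegf call was lost in 7 alternatives, among them limma-voom (adjusted p = 0.074) and leaving out SNL replicate 1, SNL replicate 2 or SNL plus UNC0638 replicate 1 (limma adjusted p = 0.095, 0.075 and 0.126), and the Nrg2 call with the model term (limma adjusted p = 0.055).

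Around Clcf1, 8 of 12 tested genes of CNTF receptor signalling rose and 0 fell in SNL against Sham, with a median log2 fold change of 0.65. Of all tested genes 24.8% were higher and 48.2% called in either direction. Socs3, a feedback inhibitor induced by this signal, and the kinase gene Jak2 had log2 fold changes of 2.56 and 1.29 (limma adjusted p = 0.000223 and 0.000301). The cytokine gene Il6 had 15.0, 26.1, 6.01 and 17.3 in SNL and was at 0 in 3 Sham libraries and at 0.769 in the other (limma adjusted p = 0.000382), a contrast for which no fold is given. Il6 and the cytokine gene Lif entered the test through ligated libraries and were under the 3-read floor in Sham, so their calls and their place in the count of 8 are a description. Of these genes, 1 of the 12 was higher and 0 lower in SNL plus UNC0638 than in SNL, the oncostatin M receptor gene Osmr, with 766 ± 238 in SNL plus UNC0638 (SD, n = 3) and 384 ± 60.8 in SNL (SD, n = 4; log2 fold change 0.96, limma adjusted p = 0.00738). Over all tested genes 13.5% were higher in this comparison. Without SNL plus UNC0638 replicate 1, 4 of the 12 were higher.

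The partners and bone targets of Runx2 went both ways. Of 7 tested genes, 1 rose and 2 fell in SNL against Sham, where 24.8% of all tested genes were higher and 23.4% lower. Spp1, Runx1, Runx3 and Mmp13 did not pass. The bone matrix gene Ibsp had 86.5 ± 43.5 in SNL and 28.9 ± 11.1 in Sham (SD, n = 4 each; log2 fold change 1.49, limma adjusted p = 0.0171), and its call was lost without SNL replicate 1 or Sham replicate 4 (limma adjusted p = 0.055 and 0.053). The phosphatase gene Alpl and Cbfb, the binding partner of all RUNX proteins, fell by 0.55 and 0.63 on the log2 scale (limma adjusted p = 0.0281 and 0.0412), and the Cbfb call was lost in 10 alternatives, the Alpl call in 4. Runx1, a RUNX factor of blood cells and of nociceptors, was higher in SNL plus UNC0638 than in SNL, with 318 ± 52.1 in SNL plus UNC0638 (SD, n = 3) and 139 ± 30.4 in SNL (SD, n = 4; log2 fold change 1.20, limma adjusted p = 0.00658), and Ibsp was lower by -2.06 (limma adjusted p = 0.0104). With the model term both calls were lost (limma adjusted p = 0.077 for Runx1 and 0.117 for Ibsp).

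Of 16 tested cadherin, catenin and NCAM partner genes, 3 rose and 4 fell in SNL against Sham, where 24.8% of all tested genes were higher and 23.4% lower. The P-cadherin gene Cdh3 fell to 26.1 ± 29.3 in SNL, against 424 ± 31.6 in Sham (SD, n = 4 each; log2 fold change -4.48, limma adjusted p = 0.000124), and stood at 242 ± 115 in SNL plus UNC0638 (SD, n = 3; log2 fold change against SNL 3.57, limma adjusted p = 0.00156). Cdh5, the cadherin of endothelium, and Cdh19, a cadherin of Schwann cells and their precursors, rose by 1.20 and 0.69 on the log2 scale (limma adjusted p = 0.00261 and 0.00271). Ncam2 fell by 0.51 (limma adjusted p = 0.0126). Cdh3 was the 1 gene of 16 called in SNL plus UNC0638 against SNL, where 27.8% of all tested genes were called.

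Other genes of repair and immature Schwann cells went both ways. Of 19 tested, 10 rose and 5 fell in SNL against Sham, where 24.8% of all tested genes were higher and 23.4% lower. Several of the 19 (Jun, Gap43, Ngfr) are also neuronal genes of the ganglion. Pax3, among the 10, was at 1.54 to 6.23 in Sham and entered the test through the ligated libraries. Its place in that count is a description. Jun, the factor that leads the repair state, had 1883, 3954 and 3754 in SNL plus UNC0638, 6612, 6994, 6383 and 6040.5 in SNL, and 1113, 1235, 1845 and 1372 in Sham. All SNL libraries stood above all others (log2 fold change against Sham 2.25, SE 0.22, limma adjusted p = 0.000101). Gfap, a filament of satellite glia and non-myelinating Schwann cells, the intermediate filament gene Vim and the factor gene Zeb2 had log2 fold changes of 3.36, 1.66 and 1.29 (limma adjusted p = 0.000134, 0.000117 and 0.00011). The 5 that fell, given here after their values were seen, were the adhesion gene Cadm1, the fatty acid binding protein gene Fabp7, the neurotrophin receptor gene Ngfr, the factor gene Etv5 and the glial calcium-binding protein gene S100b, by 1.48, 1.48, 0.95, 0.71 and 0.70 on the log2 scale (limma adjusted p = 0.000209, 0.00352, 0.0154, 0.00301 and 0.00933). With UNC0638, 3 of the 19 were higher and 5 lower than in SNL, where 13.5% of all tested genes were higher and 14.3% lower. Gap43, a growth cone gene, Jun and Vim were lower by -2.06, -1.10 and -0.91 on the log2 scale (limma adjusted p = 0.00224, 0.00766 and 0.00864). The 3 that were higher, given after their values were seen, were Notch1, Cadm1 and Etv5, by 1.17, 0.81 and 0.49, and these calls were lost in 7, 4 and 12 alternatives. Without SNL plus UNC0638 replicate 1, 1 of the 19 was higher and 4 lower.

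None of the myelin genes fell by the test after ligation. Of 17 tested, 7 rose and 0 fell in SNL against Sham, with a median log2 fold change of 0.35. Of all tested genes 24.8% were higher, 23.4% lower and 48.2% called in either direction. The share of myelin genes called in either direction was thus no higher than over all genes, though all that were called rose. Cnp had 6969 ± 859 in SNL and 2757 ± 213 in Sham (SD, n = 4 each; log2 fold change 1.33, limma adjusted p = 0.000205). The promyelin factor genes Pou3f1 and Egr2 had log2 fold changes of 2.20 and 1.95 (limma adjusted p = 0.000362 and 0.00054). In SNL plus UNC0638 against SNL, 5 of the 17 were lower and 0 higher, where 14.3% of all tested genes were lower and 27.8% called. Mbp had 10045 ± 773 in SNL plus UNC0638 (SD, n = 3) and 15859 ± 2400.4 in SNL (SD, n = 4; log2 fold change -0.65, limma adjusted p = 0.00584) and Pmp2 had -0.95 (limma adjusted p = 0.00673). With the model term the call of Pmp2 was lost (limma adjusted p = 0.079). Sox10, the activator of these genes, had a log2 fold change of 0.30 in the same comparison and was not called.

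**Figure D5:**
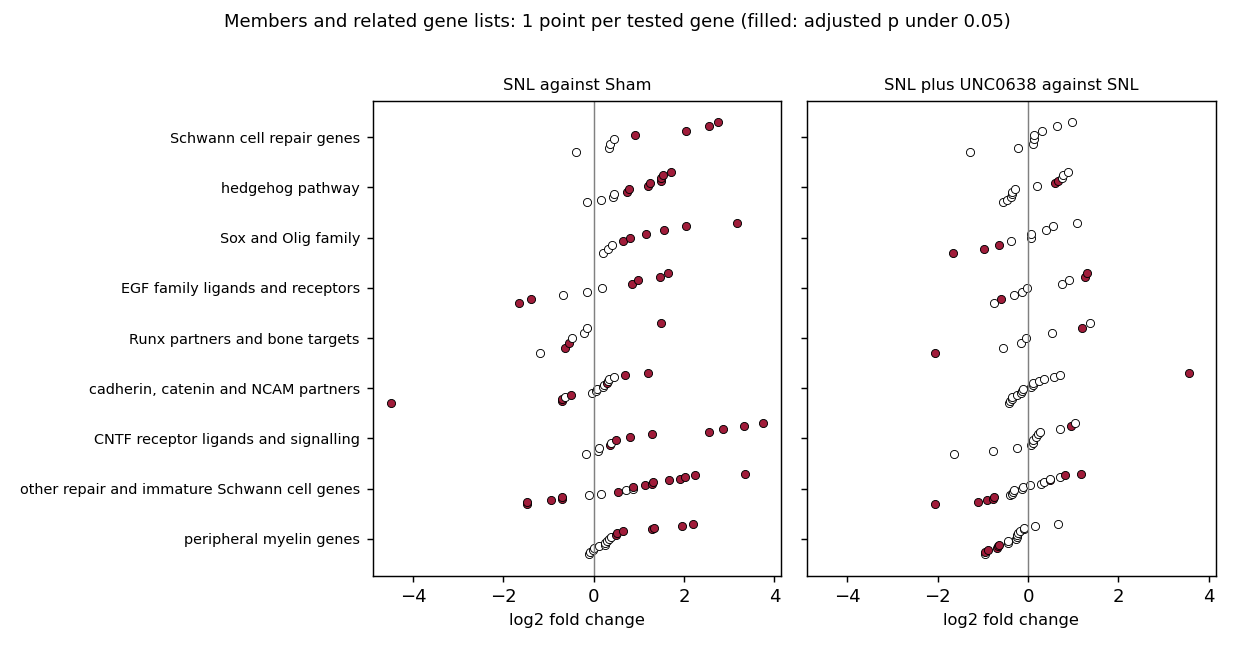
Log2 fold changes of the 8 tested members and of 8 related gene lists in SNL against Sham (left) and SNL plus UNC0638 against SNL (right), with 1 point per tested gene, filled where the adjusted p was under 0.05. On the left the filled hedgehog points are all above 0 (8 of 12 genes), and on the right none of the members is filled.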

How the data were processed

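RNA of 11 dorsal root ganglion libraries was made with a stranded, ribosomal RNA-depleted kit after extraction with either of 2 reagents, per the labels' protocols, and the reagent of each library was not given in the sources used here. Reads of 50 bases were aligned to rn4 with TopHat (TopHat2 2.0.9), and Cuffdiff 2.1.1 is named, per the submitters' processing notes. The counting step, its annotation and its use of strand were not given in the sources used here. Reads of overlapping or antisense genes can therefore not be assigned. The deposited values are a signal: per gene, a read count that had been scaled with 1 factor per library, as read from the steps between low values. In each library 99.1% to 99.4% of values under 1000 steps lay within 0.05 steps of a multiple of 1 common step, and reads were estimated by that step. Because a few fractional values remain, the planned negative binomial count models were not run, and limma-voom on the estimated reads served as an alternative.

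A gene was tested if 3 or more libraries reached a value of 10 (12085 genes). Left out were 2 genes, Sdc2 and Pcdhgc5, listed at 0 in 1 whole group. limma 3.58.1 (R 4.3.3, statmod 1.5.0) modelled log2(value + 1) by group in all 11 libraries together, with eBayes (trend, robust), two-sided, with Benjamini-Hochberg adjustment over all tested genes and calls at an adjusted p under 0.05. SE and 95% intervals are those of the moderated fit. The fit was tested on simulated data. Members and lists were chosen with earlier results of these data known. Named are all members, per list up to 4 called genes with the smallest p in SNL against Sham and up to 3 in SNL plus UNC0638 against SNL, and per member the 2 genes nearest in pattern. Some genes of this rule are not reported here. RefSeq promoters (GRCr8) matched 3 of the 9 members by symbol. Alternatives changed the pseudocount, filter, scaling, test, libraries, replicate block and a model term.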

Additional observations from a re-analysis of the deposited data

Results flagged for a closer look

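Groups of 4 libraries were examined for a library far from the other 3, for the members and for the summed marker lists, 36 groups in all, and chance flags about 1 in 20. Shh in SNL replicate 4 (264 scaled counts) lay far below the next SNL library (456). Ncam1 in Sham replicate 3 (2412 scaled counts) lay far above the next Sham library (1489.5). The summed macrophage markers of Sham replicate 3 (4202 scaled counts) lay far above the next Sham library (2318).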

How the results depend on the processing

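In SNL against Sham 4 members were called. The count was 2 with a mean of at least 50, which left Btc and Clcf1 untested, 7 with limma-voom, and 4 to 5 when 1 library was left out. For SNL plus UNC0638 against SNL the count was 0, with 1 at a pseudocount of 5, 3 with limma-voom, 1 without Sham replicate 3 and SNL replicate 3 together (chosen after seeing the data), and 0 to 1 when 1 library was left out. For SNL plus UNC0638 against Sham it was 3, with 7 by limma-voom and 3 to 5 when 1 library was left out. The model term for a set of libraries reversed log2 fold changes of SNL plus UNC0638 against SNL for Runx2 (-0.056), Cdh2 (-0.16), Ncam1 (-0.41) and Sox10 (-0.32), and of SNL plus UNC0638 against Sham for Shh (-0.18). That set held every SNL plus UNC0638 library, so these reversals are a description. Leaving out 1 library, the values of SNL plus UNC0638 against SNL ranged from -0.47 to 0.016 for Shh, -0.019 to 0.22 for Sox2, -0.024 to 0.29 for Cdh2 and -0.048 to 0.30 for Ncam1, and those of SNL plus UNC0638 against Sham from -0.11 to 0.37 for Shh. The cause was not tested. Over all genes, 3356 were called in SNL plus UNC0638 against SNL, against 2126 with the replicate block, 1286 with the model term, 2078 without SNL replicate 1, 2098 without SNL plus UNC0638 replicate 2 and 5346 without Sham replicate 3 and SNL replicate 3 together. The replicate block gave 4 members called in SNL against Sham, 0 in SNL plus UNC0638 against SNL and 3 in SNL plus UNC0638 against Sham. Libraries of the same number correlated at -0.45 to 0.43 in their deviations from the group means, so the numbers were not taken as pairs. Limma-voom moved the median of all genes by 0.13 in SNL plus UNC0638 against SNL and 0.19 in SNL plus UNC0638 against Sham. The shares of all genes that limma-voom called are not given here, so its counts of members are a description. The planned negative binomial count models on recovered reads were not run because some values are fractional. Depth limits Olig1 and the low Sham values of Btc and Clcf1.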

Other observations

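Per 1000 scaled counts of Sox10, Shh had 154 to 203 in SNL plus UNC0638, 209 to 315 in SNL and 296 to 488 in Sham, so that SNL plus UNC0638 lay below both other groups while SNL and Sham overlapped. Sox2 per 1000 of Sox10 was 186 to 233 in SNL plus UNC0638, 185 to 296 in SNL and 188 to 592 in Sham, and all 3 groups overlapped. Set against Sham, SNL plus UNC0638 had 8 of 12 hedgehog genes, 7 of 12 genes of CNTF receptor signalling, 4 of 9 relatives of the Sox and Olig members and 5 of 17 myelin genes higher by limma (adjusted p under 0.05), and 2 of the myelin genes lower. Of all tested genes, 25.5% were higher and 26% lower in that comparison. The counts of these lists share the Sham libraries with those of SNL against Sham. Il6, Lif and Sox7 entered the test through the ligated libraries, so any call of them in these counts is a description.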
